A study of Mus musculus with 264 samples.

Results

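Single Set-B neurospheres exposed to 70 mM ethanol were compared with single Set-B neurospheres exposed to 25 mM, the step from the low to the middle of the 3 ethanol doses. Neurospheres are free-floating aggregates grown from neural stem and progenitor cells, and here 1 neurosphere was 1 sample. The members were chosen by the run, culture set and ethanol dose in the sample names: 33 neurospheres at 70 mM and 32 at 25 mM, 65 of the 264 in the series. Run 1 held 11 at each dose, and run 3 held 22 at 70 mM and 21 at 25 mM. All came from C57/Bl6 fetuses, from the dorsal telencephalon dissected at gestational day 12.5, and all were grown in medium with bFGF, EGF and LIF. Cells of 2 litters were pooled at a time, cultures were assigned to ethanol at random, and neurospheres were collected on day 5 of exposure. The sample labels give the doses as 25 and 70 mM, the treatment protocol as 26 and 70 mM (120 and 320 mg/dl), and the series design as 25 and 75 mM. The sample labels were followed.

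In the fetal cortex, neuroepithelial stem cells divide at the ventricle and give rise to progenitors and then to neurons. As neurospheres these cells keep dividing under bFGF and EGF, and one neurosphere usually holds stem cells, committed progenitors and some differentiating cells together. Ethanol is a teratogen of the fetal brain, and the series asks whether exposure shifts the molecular state of such neurospheres.

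The measure was RT-qPCR of messenger RNA on microfluidic arrays, with 75 assays per neurosphere. Each value is a cycle number (Ct), the amplification cycle at which product appears, on an inverted log2 scale: 1 cycle earlier corresponds to about 1 doubling more template. The assays carry codes, and 0 of 75 codes matched a mouse gene name, so the progenitor, neuron and glia markers could not be checked and no assay is given a gene or a function. Cycle numbers ran from 2.89 to 28.78 in the 65 neurospheres, and 590 of 4875 values (12.1%) were missing and read as not detected. There were 33 assays with a value in all 65. Both doses came from 1 culture set, so every p-value below rests on the spread among neurospheres, and the spread between cultures was not measured.

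Some neurospheres stood apart within their group. In run 1 at 70 mM, 1 neurosphere had 47 detected assays where the next lowest of its group had 71, and 24 of its 28 missing assays were detected in all the other 10. It had values for 38 of the 50 widely detected assays defined below. Over those 38 its mean cycle number was 10.7, and the other 10 ran from 8.22 to 12.0. In run 3 the sample names carry a position code whose letter is B for 12 neurospheres and C for 9 at each dose, with 1 more at 70 mM under the letter A; the codes of run 1 all carry A. The labels do not say what the letter marks. The letters differed in total signal, so the main results are also given by letter, a division made after the data were seen.

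Product appeared earlier at 70 mM than at 25 mM. The total signal of a neurosphere was taken as the average Ct of 50 widely detected assays, those with a value in at least 95% of the series. It was 14.6 ± 2.29 cycles (SD) in the 32 neurospheres at 25 mM. In the 33 neurospheres at 70 mM it was 11.6 ± 1.99 cycles (SD). Adjusted for run, the difference was -3.02 cycles (SE 0.51, 95% interval -4.05 to -1.996, adjusted p = 3e-05 over 6 measures, permutation test, two-sided). With the median of those assays in place of the average it was -2.51 cycles. By the summed signal of all assays, on the same scale, it was -1.23 (SE 0.43, unadjusted p = 0.00566, permutation test). The average weighs each assay equally, so its shift is not that of the summed template. An earlier cycle can come from more cells, from more RNA per cell or from the steps before the reading, and these cannot be told apart here.

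In run 1 the mean cycle number ran from 10.6 through a median of 14.9 to 16.8 at 25 mM. At 70 mM in that run it ran from 8.36 through 10.1 to 12.1. The groups overlapped in part, through 2 neurospheres at 25 mM that lay below 10.7, and the 70 mM neurosphere was the earlier one in 111 of 121 pairs (91.7%). In run 3 the 25 mM mean was 14.8 ± 2.40 (SD, n = 21) against a 70 mM mean of 12.3 ± 1.91 (SD, n = 22), a difference of -2.52 cycles (SE 0.66), and the 70 mM neurosphere was earlier in 328 of 462 pairs (71.0%). At 70 mM in run 3 the values fell into separate clusters, with 5 neurospheres up to 9.41 and 17 from 12.3 onward. All 5 early ones carried letter B. The other B neurospheres, from 12.4 to 13.3, lay in the later cluster with those of letter C.

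The letters of run 3 went different ways. Under letter B the lowest, median and highest mean cycle numbers were 12.3, 16.4 and 19.5 at 25 mM and 8.70, 12.5 and 13.3 at 70 mM, a difference of -4.75 cycles (SE 0.89, adjusted p = 0.00024 over the 3 run and letter strata, permutation test). Under letter C they were 11.7, 12.8 and 16.3 at 25 mM and 12.3, 13.8 and 14.0 at 70 mM, a difference of 0.43 cycles (SE 0.49, adjusted p = 0.413, exact permutation test, n = 9 and 9). That value rests on 1 neurosphere, the 25 mM one at 16.3: without it the 25 mM mean was 12.7 ± 0.59 (SD, n = 8) and product was later at 70 mM by 0.83 cycles (SE 0.29, unadjusted p = 0.0139, exact permutation test). With all neurospheres, the 70 mM neurosphere was the earlier one in 131 of 144 pairs (91.0%) under B and in 21 of 81 (25.9%) under C, or 12 of 72 without that neurosphere. The step under B minus the step under C was -5.18 cycles (SE 1.01, adjusted p = 6e-05 over 4 measures, permutation test). Run 1 alone gave -4.00 cycles (SE 0.78, adjusted p = 0.00033, permutation test).

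The other doses of Set-B placed the letters differently again. Mean cycle number was 13.4 under B and 14.6 under C at 0 mM, and 10.9 under B and 9.92 under C at 100 mM. At 25 mM the B neurospheres were the later ones, 16.1 against 13.1, and at 70 mM the earlier ones, 11.3 against 13.5. Diameter, which each label records, differed by 0.01 in log2 units between the doses (SE 0.12, 95% interval -0.22 to 0.24, adjusted p = 0.935, permutation test). Mean diameters were 43.6 and 43.2 µm at 25 and 70 mM in run 1 and 39.0 and 39.9 µm in run 3. Under letter B the mean log2 diameter was 5.19 at 25 mM and 5.44 at 70 mM, and under C it was 5.28 and 4.94. The diameter step under B minus that under C was 0.58 (SE 0.29, adjusted p = 0.0589, permutation test). With log2 diameter as a covariate the dose difference in total signal was -3.01 cycles (SE 0.49, unadjusted p = 1e-05, permutation test). With run and letter as strata it was -3.03 cycles (SE 0.53, unadjusted p = 1e-05, permutation test). What made the letters differ was not tested.

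**Figure D1:**
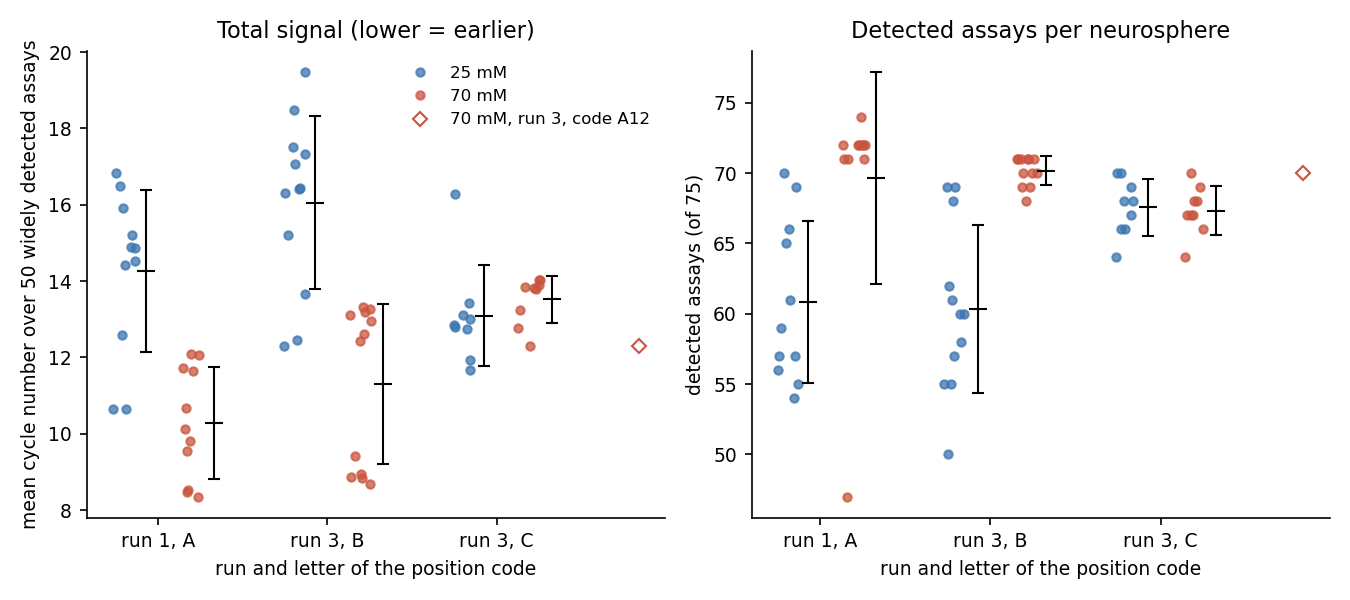
Mean cycle number over 50 widely detected assays (left, lower means earlier product) and number of detected assays out of 75 (right), 1 point per Set-B neurosphere, by run, letter of the position code and ethanol dose, with the mean and SD as a black bar beside each group. The 70 mM points lie lower on the left and higher on the right in run 1 and under letter B of run 3, and lie among the 25 mM points under letter C; 1 run 1 neurosphere at 70 mM has 47 detected assays.

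Diameter and total signal were also set against each other within each run and dose, 4 relations in all. None passed after adjustment, with the lowest adjusted p at 0.0826 (Pearson, permutation test) for run 3 at 70 mM. In run 1 at 25 mM Pearson's r was -0.31 (adjusted p = 0.359, permutation test, n = 11) and Spearman's rho -0.07 (adjusted p = 0.839, permutation test), and r became 0.78 without the 2 neurospheres farthest from the median diameter, so the relation rests on those 2. In run 1 at 70 mM r was 0.50 (adjusted p = 0.153, permutation test, n = 11), rho 0.52 (adjusted p = 0.141, permutation test), and r 0.51 without the 2 farthest. No coefficient is given for run 3, where total signal fell into clusters at 70 mM and differed between the letters at 25 mM. Pooled over the letters, the relation in run 3 was negative in sign at each dose, where that of run 1 at 70 mM was positive.

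More assays gave a value at 70 mM. Missing values made up 16.6% of the 25 mM values (399) and 7.72% of the 70 mM values (191). In run 1 a 25 mM neurosphere had from 54 through a median of 59 to 70 detected assays, and a 70 mM neurosphere from 47 through 72 to 74. In run 3 the values were 50, 66 and 70 at 25 mM and 64, 69.5 and 71 at 70 mM. Within run the difference was 6.67 assays (SE 1.30, adjusted p = 4e-05, permutation test), and 7.38 without the 70 mM neurosphere with 47. The letters again differed: 60.3 against 70.2 assays under B (9.83 more, SE 1.75) and 67.6 against 67.3 under C (-0.22, SE 0.88, adjusted p = 0.900, exact permutation test, n = 9 and 9), a difference between letters of 10.1 (SE 1.96, adjusted p = 4e-05, permutation test).

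Assay by assay, detection rose for 17 of the 28 assays that had a value in 5% to 95% of the 65 neurospheres (60.7%, exact conditional Mantel-Haenszel test with runs as strata, adjusted p under 0.05), and fell for none, also before adjustment. The share of neurospheres with a value was higher at 70 mM in 27 of the 28, and among the 17 the median difference was 28.3 percentage points, from 15.5 to 87.5. Under letter B the share was higher at 70 mM in 15 of the 17 and equal in 2, though these neurospheres had entered the test that chose the 17. Those 2 had no value in run 3 at either dose, so their calls came from run 1 alone. Another of the 17 had no value in run 1 at either dose, so its call came from run 3 alone. Tested under letter B alone, 9 of 25 assays passed (Fisher's exact test, adjusted p under 0.05), and the median difference over the 25 was 41.7 percentage points. Of the 9, 8 were higher and 1 lower, from 11 of 12 neurospheres at 25 mM to 4 of 12 at 70 mM. Under letter C the share was higher in 3 of the 17, lower in 9 and equal in 5, with a median of -11.1 percentage points. The 2 without a value in run 3 are among the equal ones. Over the 19 assays tested under letter C alone the median was also -11.1 percentage points. As a group the 17 were late, with a median over assays of 18.2 cycles where detected, against 14.0 over the 69 assays tested for level. All 28 had been chosen for missing values in some neurospheres, which favours late assays, so that gap is no result about the 17. By stratum, the rise in detection went with the earlier total signal, in run 1 and under letter B, and the part of total signal in it was not tested.

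One assay, singled out after its values were seen, departed from this. It had a value in 4 of 32 neurospheres at 25 mM (12.5%, 95% Wilson interval 4.97 to 28.1) and in 33 of 33 at 70 mM (100%, 89.6 to 100), with an adjusted p of 8.12e-13 (exact Mantel-Haenszel test). The rise held under both letters: 2 of 12 to 12 of 12 under B, 0 of 9 to 9 of 9 under C, and 2 of 11 to 11 of 11 in run 1. The 0 of 9 allows a share of up to 33.3%, for counting error only. Its 4 values at 25 mM lay between 24.6 and 25.6 cycles, and its 33 values at 70 mM ran from 13.2 through 19.2 to 24.8. Under letter C at 70 mM its median was 22.2 cycles. In Set-B at 0 mM it had a value in 19 of 34 neurospheres, and at 100 mM in 33 of 33. In Set-A it had a value in 34 of 34, 30 of 32, 28 of 33 and 22 of 33 neurospheres at 0, 25, 70 and 100 mM.

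**Figure D2:**
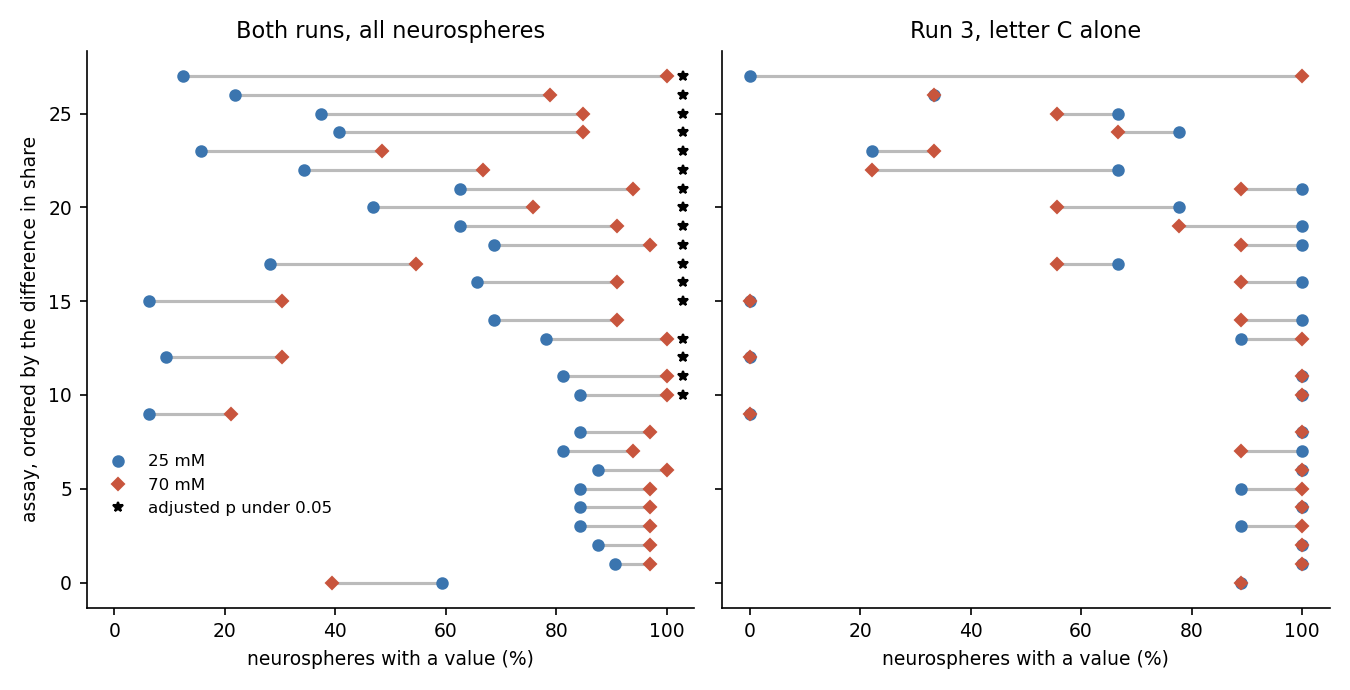
Share of neurospheres with a value at 25 mM (blue circles) and 70 mM (red diamonds) for the 28 assays detected in 5% to 95% of the 65 neurospheres, 1 row per assay ordered by the difference, in both runs (left, stars mark the 17 assays with adjusted p under 0.05) and under letter C of run 3 alone (right). The red points lie to the right in 27 of 28 rows on the left, while on the right most rows show no difference or the opposite one. The largest rise on the right is that of the top row, 0 of 9 against 9 of 9, and a few other rows rise by less.

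The make-up of the signal also differed between the doses. To set the doses side by side at a common mean, each assay's cycle number was subtracted from the average of the 50 widely detected assays in that neurosphere, which gives a relative level in log2 units where higher means more. By this centring, rises and falls balance over those 50 assays. Of 69 assays with a value in at least 50% of the 65 neurospheres, 47 differed between 70 and 25 mM (68.1%, limma with run as covariate, adjusted p under 0.05): 24 rose and 23 fell relative to that mean. A fit on 1 mean per run and dose called 28, of which 15 rose and 13 fell, and a fit with mean cycle number as a covariate called 45. The median log2 difference was 2.00 among the 24 (from 0.68 to 4.17) and -1.77 among the 23 (from -3.41 to -0.44). The 4.17 was that of the assay singled out for detection above, and it rests on 4 values at 25 mM. In run 3 alone the step of that assay was 1.90 (limma adjusted p = 0.252). There were 12 that rose and 7 that fell by over 4-fold. The other 22 did not pass, and their median size was 0.24 in log2 units, against 1.47 over all 69.

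Without that centring, 60 of the 69 assays (87.0%) had earlier cycle numbers at 70 mM and none had later ones by the same test (68 of the 69 differences were toward earlier product), and the median assay rose by 2.73 in log2 units. The raw and the relative view therefore describe the same assays differently. The 24 that rose relative to the mean all rose in raw cycles too, by a median of 4.81. Of the 23 that fell relative to the mean, 15 rose in raw cycles, 8 did not pass, and the raw median was 1.25. Set-B neurospheres in the pooled comparison thus showed assays that gained much signal and assays that gained little, and "rose" and "fell" below below refer to relative levels unless raw cycles are named.

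Both runs showed the step by themselves. Run 1 alone gave 48 of 69 assays (69.6%) and run 3 alone 46 of 69 (66.7%), and 38 assays passed in both. The sign was the same in both runs for 49 of all 69 assays, and for 44 of the 47 called by the combined fit, a choice that favours such assays. Across the 69 assays the steps of the runs had a Pearson r of 0.59 and a Spearman rho of 0.71, as a description over assays that share neurospheres within each run. The step itself differed between the runs for 11 of 69 assays (15.9%, limma interaction, adjusted p under 0.05), 4 with a more positive step in run 3 and 7 with a more negative one. It differed for 3 without centring and for 2 with missing values set to 30 cycles. In 8 of the 11 the steps had opposite signs, and in 9 the larger step was that of run 1.

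The relative step was found under both letters, unlike total signal. Letter B alone gave 46 of 69 assays (66.7%), 24 higher and 22 lower, and letter C alone 41 of 68 (60.3%), 17 higher and 24 lower (limma, adjusted p under 0.05); 34 assays passed in both. Of the 24 assays that rose in the combined fit, 21 also had a positive difference under C, and all 23 that fell had a negative one; neurospheres of both letters had entered the fit that chose these assays. Over all 68 assays measured under both letters, called or not, the sign was the same for 50. The steps of those 68 had a Pearson r of 0.79 and a Spearman rho of 0.79, as a description. The test of the difference between the letters passed for 5 of 68 relative levels (7.35%; 30 before adjustment, limma) and for 61 of 68 raw cycle numbers (89.7%).

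In raw cycles the letters made the same split at another height. Under B, 61 of 69 assays rose (88.4%, limma, adjusted p under 0.05), none fell (all 69 differences were positive), and the median difference was 4.43 in log2 units. Under C, 26 of 68 passed (38.2%), 7 higher and 19 lower, with a median of -0.72. The 24 assays that rose in relative level had raw medians of 6.09 in run 1, 6.72 under B and 1.19 under C. The 23 that fell had raw medians of 2.42, 2.77 and -1.82, and under C each of the 23 had a later cycle number at 70 mM. The distance between the 2 sets was fixed in large part by their choice in a fit on these same neurospheres, and is no result. The raw direction of the second set differed between the strata.

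**Figure D3:**
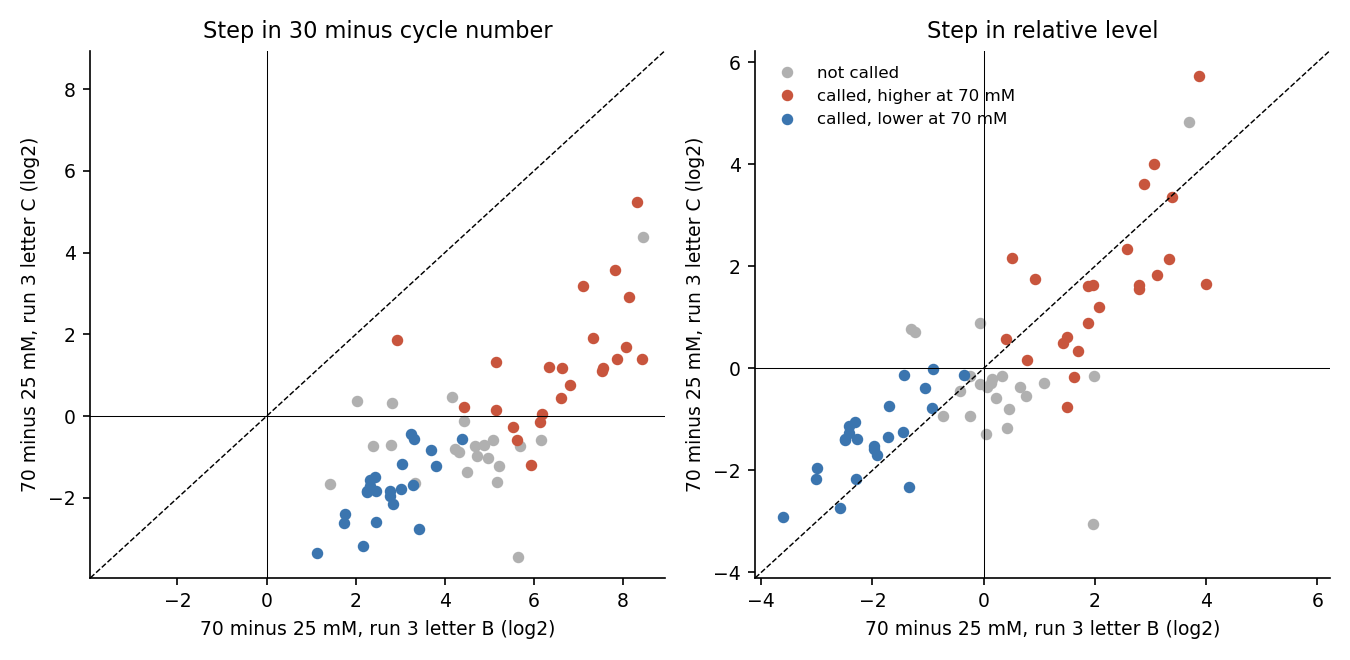
Difference between 70 and 25 mM for each assay under letter B (horizontal) and letter C (vertical) of run 3, in raw signal as 30 minus the cycle number (left) and in relative level (right), both in log2 units; the dashed line marks equality, and colours mark the direction of the 47 assays called in the combined fit. On the left every point lies below the line, with medians of 4.43 under B and -0.72 under C, and on the right the points run along the line, with a Pearson r of 0.79.

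The assays named here were the 2 with the largest rise and the 2 with the largest fall among 35 that passed, were detected in at least 90% of each run and dose and had the same sign in both runs (14 up, 21 down). They are given as codes, and each relative level is on the log2 scale. Primer efficiencies are not known, so levels are compared between doses and never between assays.

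Assay A018 rose. In run 1 its relative level ran from -7.71 through a median of -3.84 to -2.32 at 25 mM and from -1.23 through -0.37 to 0.45 at 70 mM, where 10 of 11 neurospheres had a value. In run 3 it ran from -5.95 through -3.62 to -1.18 at 25 mM and from -1.11 through -0.29 to 0.57 at 70 mM. The doses did not overlap in either run. The difference was 3.50 (SE 0.25, limma adjusted p = 6.73e-20), or 11.3-fold. Under the letters it was 3.39 under B and 3.35 under C. Of the 45 assays with a value in at least 64 of the 65 neurospheres, A018 was the only one that lay higher at 70 mM without overlap in each run, where 68.1% of all tested assays passed the level test.

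Assay A071 also rose, with an uneven size. In run 1 it ran from -1.37 through -0.32 to 0.95 at 25 mM and from 3.07 through 3.71 to 6.10 at 70 mM. The 6.10 was that of the neurosphere with 47 detected assays, centred on the 38 it had. The other 10 reached 3.95, or 3.86 when centred on the same 38, and without that neurosphere the difference given next was 3.22. In run 3 it ran from -0.52 through 0.90 to 2.78 at 25 mM and from 0.80 through 4.26 to 4.67 at 70 mM. The doses were apart in run 1 and overlapped in run 3. The difference was 3.31 (SE 0.23, limma adjusted p = 1.57e-20), or 9.90-fold, with 4.21 in run 1 and 2.85 in run 3 (limma interaction, adjusted p = 0.0293). At 70 mM in run 3 the B neurospheres lay between 4.09 and 4.67 and the C neurospheres between 0.80 and 4.30. The steps were 3.33 under B and 2.14 under C, and the test of their difference missed the threshold (1.19, SE 0.41, limma adjusted p = 0.0631).

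Assay A073 fell. In run 1 it ran from 2.28 through 3.59 to 5.28 at 25 mM and from -1.10 through 0.31 to 1.46 at 70 mM. In run 3 it ran from 1.98 through 3.22 to 5.03 at 25 mM and from -1.02 through 0.27 to 1.13 at 70 mM. No 70 mM neurosphere reached the lowest 25 mM neurosphere of its run. The difference was -3.41 (SE 0.19, limma adjusted p = 1.71e-25), or 10.6-fold lower relative to the mean. In raw cycles it was -0.39 in log2 units (SE 0.51, limma adjusted p = 0.469), so the pooled raw level did not pass. Under letter C, where product was not earlier at 70 mM, the raw difference was -3.35 (limma adjusted p = 1.32e-05).

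Assay A043 fell as well. In run 1 it ran from 0.08 through 1.53 to 2.29 at 25 mM and from -2.82 through -1.06 to -0.47 at 70 mM. The -2.82 was again that of the neurosphere with 47 detected assays, and the lowest of the other 10 was -1.64. In run 3 it ran from 2.03 through 3.10 to 4.30 at 25 mM and from -0.34 through 0.32 to 1.20 at 70 mM. Like A073 it did not overlap between the doses in either run, and these were the 2 such assays that lay lower. The difference was -2.66 (SE 0.15, limma adjusted p = 1.71e-25), or 6.31-fold lower relative to the mean, with -3.02 under B and -2.17 under C. Its raw difference had the other sign, 0.37 in log2 units (SE 0.51, limma adjusted p = 0.483), and was -2.60 under letter C (limma adjusted p = 0.000834).

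The unexposed and the 100 mM neurospheres of Set-B give these 4 assays their setting, as levels with no test. In order of rising dose from 0 to 100 mM, the median relative level of A018 in run 1 was -4.91, -3.84, -0.37 and 0.30, and in run 3 it was -4.82, -3.62, -0.29 and -0.22. A073 had medians of 3.34, 3.59, 0.31 and 0.43 in run 1 and 1.96, 3.22, 0.27 and 0.07 in run 3. The 4 assays were chosen for their difference between 25 and 70 mM, so the size of that gap among the doses is no result. A071 had medians of 1.44, -0.32, 3.71 and 3.95 in run 1 and 2.40, 0.90, 4.26 and 4.42 in run 3, lower at 25 mM than at 0 mM. A043 had medians of 1.83, 1.53, -1.06 and -0.75 in run 1 and 2.22, 3.10, 0.32 and 0.05 in run 3.

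**Figure D4:**
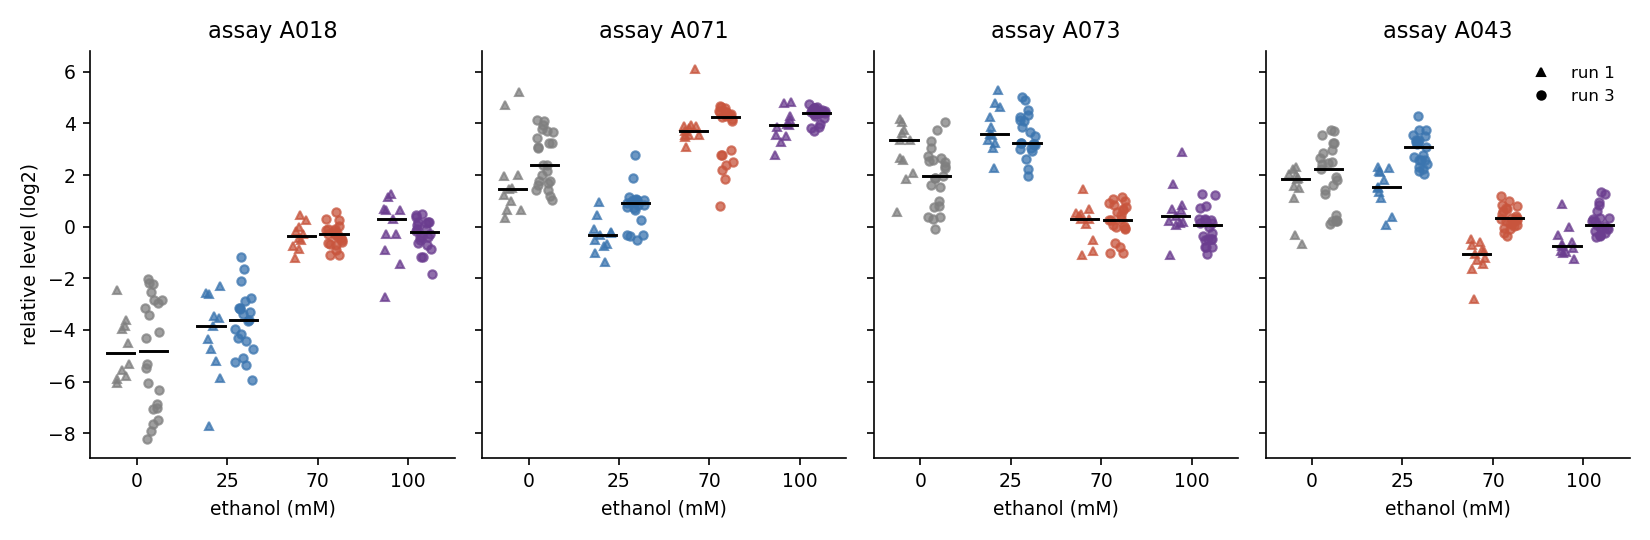
Relative level (log2) of 4 assays in every Set-B neurosphere with a value, by ethanol dose, with triangles for run 1, circles for run 3 and black lines at the medians. A018 and A071 lie higher and A073 and A043 lower at 70 than at 25 mM, and the 100 mM medians lie close to those at 70 mM.

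A single axis separated the doses. The first principal component of the relative levels of the 50 widely detected assays, computed without dose labels and with run means removed, held 51.6% of the variance, and 11 of the 50 assays made up 50% of its squared weights. The score ran from -13.4 through a median of -6.69 to 1.79 at 25 mM in run 1 and from 3.10 through 6.46 to 8.79 at 70 mM. In run 3 it ran from -13.7 through -5.61 to 0.54 at 25 mM and from 2.94 through 5.94 to 10.5 at 70 mM. Every 70 mM neurosphere lay above every 25 mM neurosphere of its run, and the difference was 12.9 (SE 0.76, adjusted p = 3e-05, permutation test).

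Centring left the score tied to total signal in some groups of run and dose. In run 3 at 70 mM the 5 earliest neurospheres scored from 8.05 to 10.5 and the other 17 from 2.94 to 7.47. In run 1 at 25 mM the 2 earliest scored -0.17 and 1.79 and the other 9 no higher than -3.37. The scores overlapped in the remaining groups. In run 1 at 70 mM the 3 earliest scored from 6.32 to 8.79 and the other 8 from 3.10 to 8.76. In run 3 at 25 mM the 11 earliest scored from -8.81 to -1.89 and the other 10 from -13.7 to 0.54.

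Under letter C, where product was not earlier at 70 mM, the score differed by 11.2 (SE 0.86, adjusted p = 4.11e-05, exact permutation test, n = 9 and 9), the smallest p that 9 against 9 can give. Under B it differed by 14.4 (SE 1.37), and the difference between the letters missed the threshold (3.12, SE 1.62, adjusted p = 0.0589, permutation test). Placed on the same axis, the 0 mM neurospheres had mean scores of -7.01 in run 1 and -3.57 in run 3, and the 100 mM neurospheres 6.99 and 7.17. Run 1 had means of -6.48 at 25 mM and 6.48 at 70 mM, and run 3 means of -6.61 and 6.31. The 0 mM neurospheres were the widest group, from -13.0 to 4.81 in run 1 and from -14.0 to 6.07 in run 3. These scores are a description, since the axis was built on the 25 and 70 mM neurospheres alone.

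**Figure D5:**
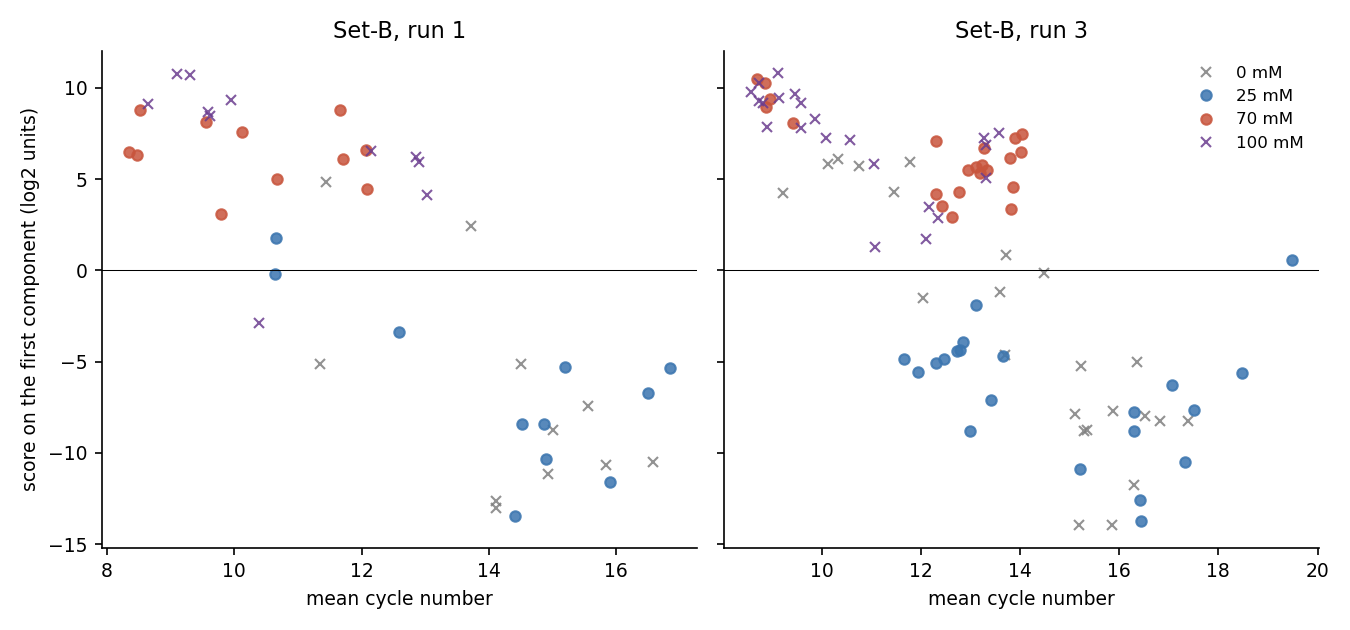
Score on the first component of relative levels (log2 units) against mean cycle number for Set-B neurospheres in run 1 (left) and run 3 (right), with filled circles for the 25 and 70 mM neurospheres that built the axis and crosses for the 0 and 100 mM neurospheres placed on it. The 70 mM circles lie above all 25 mM circles in each run; in run 3 circles of both doses share mean cycle numbers from 12.3 to 13.7 and stay apart in score.

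Neurospheres at 70 mM resembled one another more than those at 25 mM did. The root mean square distance of a neurosphere's relative levels from the median profile of its run and dose was 1.12 log2 units at 25 mM and 0.75 at 70 mM (log2 ratio -0.58, adjusted p = 0.000735, permutation test). In run 1 alone the log2 ratio was -0.46 and the unadjusted p 0.118 (permutation test), and with run and letter as strata it was -0.57. The spread of total signal was 2.31 cycles (SD within run) at 25 mM and 1.78 at 70 mM, and that log2 ratio of -0.38 did not pass (adjusted p = 0.0818, permutation test); with run and letter as strata it was -0.33 (unadjusted p = 0.151, permutation test).

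By assay, the spread of relative levels differed for 19 of 69 (27.5%, limma on absolute deviations, adjusted p under 0.05): it was narrower at 70 mM for 18 and wider for 1. Among the 18, the median SD was 1.37 log2 units at 25 mM and 0.57 at 70 mM, against 0.99 and 0.74 over all 69. Of these 18, 14 also rose in level and 1 fell. They were late assays at 25 mM, with a median of mean cycle numbers of 18.3 that became 13.0 at 70 mM, where the medians over all 69 were 15.7 and 12.5. A018 was among them, with an SD of 1.37 at 25 mM and 0.46 at 70 mM (limma adjusted p = 0.00129). The part of the late cycles in the wider 25 mM values was not tested. Without centring 10 assays passed, all narrower. In run 1 alone the 1 assay that passed was wider at 70 mM and no narrowing was called, with 14 assays under an unadjusted p of 0.05 in either direction (limma), while run 3 alone gave 19, all narrower. With run and letter as strata 16 passed, 15 of them narrower.

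The step in total signal differed in the other culture set. In Set-A the mean cycle number differed by 0.44 between 70 and 25 mM (SE 0.59), toward later product and by less than its SE. The Set-B step was -3.46 cycles relative to it (SE 0.78, p = 6e-05, permutation test). Within Set-B the step was -4.00 in run 1, -4.75 under letter B and 0.43 (SE 0.49) under letter C, so the set difference does not describe letter C. The relative step differed between the sets for 36 of 71 assays (50.7%, limma interaction, adjusted p under 0.05), 18 more positive and 18 more negative in Set-B. For the 4 named assays the Set-A differences were 1.41 for A018, 0.50 for A071, -1.72 for A073 and -1.33 for A043, each of the same sign as in Set-B and smaller (limma interaction, adjusted p from 2.80e-15 to 0.00061). These 4 were chosen for large differences in Set-B, which by itself favours smaller ones in Set-A. Set-A had a relative step of its own, with 34 of 71 assays passing (21 higher and 13 lower at 70 mM, limma, adjusted p under 0.05). Among the 47 assays called in Set-B, 18 of the 24 that rose and 19 of the 23 that fell had the same sign in Set-A. The same-sign share over all tested assays is not given here, so no agreement is read from these counts. With 1 culture set of each kind, the set and anything else that differed between the cultures cannot be told apart.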

How the data were processed

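The table holds cycle numbers for 75 assays in 264 neurospheres. The authors deposited them as non-normalized Ct values, per the file headers; per the labels' protocols, lysates of single neurospheres went into reverse transcription and pre-amplification with no RNA isolation, and product was read with EvaGreen over 30 cycles, and Ct was calculated by the instrument's software. Neither primer efficiency nor what makes a value missing is stated by the labels or headers, and no count of molecules stands behind a value. Groups came from the sample names; the stage label, which counts upward from sample to sample, was not used. The comparison, the assays and the tests were chosen with earlier results of these data known.

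Relative levels, differences of log2-like cycle numbers, were computed from the deposited values and tested with limma 3.58.1 (R 4.3.3), with run as covariate, missing values left missing and Benjamini-Hochberg adjustment over the 69 assays. Named assays were, among those with adjusted p under 0.05, at least 90% detection in each run and dose and the same sign in both runs, the 2 largest rises and 2 largest falls; the rule gave only 2 each way because codes are not paired with genes. Single values were tested by two-sided permutation, 100000 resamples within run (all assignments for 9 against 9), with 1e-05 the smallest p; detection by the exact conditional Mantel-Haenszel test. Other normalizations, filters, covariates, sample subsets and a block by position code were tried. The steps were tested on simulated data. Python 3.11.15, numpy 2.4.6, scipy 1.17.1, pandas 2.3.3 and matplotlib 3.10.9 were used. No 2 neurospheres shared over 20% of their values.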

Additional observations from a re-analysis of the deposited data

Results flagged for a closer look

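One neurosphere under letter C of run 3 at 25 mM had a mean cycle number of 16.3, with the nearest of its group at 13.4; its gap was 0.620 of the group's range, above the limit of 0.493 for 9 samples. It was the 1 such value among 8 groups tested, and chance flags about 1 group in 20. Without it the letter C difference in mean cycle number became 0.83 in place of 0.43. Differences between groups, by test, were the step in mean cycle number in Set-B against Set-A (-3.46), the 36 assays whose relative step differed between the culture sets, the 11 assays whose relative step differed between the runs, the step in mean cycle number under letter B against letter C (-5.18) and the step in detected assays under B against C (10.1).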

How the results depend on the processing

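The count of 47 assays stayed within 1.5 times under the alternatives tried, from 41 to 60, apart from the fit on 1 mean per run and dose, which gave 28. The split moved from 24 higher and 23 lower to 60 and 0 without normalization, 32 and 19 when centred on medians, and 30 and 23 with missing values set to 30 cycles; A043 became 0.37 without normalization. Differences between runs numbered 3 without normalization and 2 with missing values set to 30 cycles. Assay spread gave 10 without normalization, all narrower, and 1 in run 1 alone, which was wider, and profile spread was -0.46 in run 1 alone, below the threshold. Detection gave 6 assays in run 1 alone, 3 in run 3 alone, 11 with run and letter as strata, 9 under letter B (8 higher, 1 lower) and 1 under letter C. Mean cycle number was 0.43 and detected assays -0.22 under letter C alone; without the latest letter C neurosphere at 25 mM, an alternative chosen like the other letter settings after seeing the data, mean cycle number was 0.83 under letter C and -2.98 overall. The cause of these changes was not tested, though single runs and letters hold fewer neurospheres. With a replicate block by position code, 49 assays passed and the mean cycle difference was -3.03; same-coded neurospheres correlated from -0.55 to 0.44 (median -0.03, 12 of 32 pairs over 0.1), so the codes are not read as pairing the samples. Missing values limit the comparison for late assays, and also for the assays with no value in a whole run, 3 in run 3 and 1 in run 1.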
